A study of Mus musculus with 26 samples.

Results

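Neural lineage genes were followed through 13 groups of mouse embryonic stem cells (mESCs) as a set of 9 genes: Pax6, Sox1, Neurog1, Neurog2, Nes, Tubb3, Zic1, Meis1 and Meis2. They were taken by exact gene name from a table of read counts for 55291 genes, and all 9 were found. A filter on low counts left 20953 genes for testing, among them 7 of the 9. Neurog1 and Neurog2 did not pass it and are given by their counts alone.

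All 26 libraries came from R1 cells, a mouse ES cell line, cultured with leukemia inhibitory factor, and each group held 2 replicates. The unperturbed groups were untreated cells (ESC) and cells given the DMSO vehicle (DMSO). Retinoic acid (RA, 0.53 μM for 48 h) and the splicing inhibitor pladienolide B (PlaB, 4 nM for 4 days) were the chemical inductions. In the overexpression groups doxycycline for 24 h (4 μg/mL, a dose stated for Dux) induced Dux (Dux OE), its R70A mutant (Dux R70A OE) or Zscan4 (Zscan4 OE). Dux was knocked down by shRNA (Dux KD) in RA, in PlaB and, by its label, in Zscan4 OE. Cells labelled SE KO, which the study describes as lacking a super-enhancer at the Tdpoz gene cluster, were given RA, PlaB or Dux OE.

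Several limits follow from the labels. SE KO RA replicate 1 is titled as SE KO but carries a wild-type genotype label, so its results are also given without it. The libraries labelled Dux KD Zscan4 OE carry the treatment label "no" and no time, so whether doxycycline was given is not known. Zscan4c had 12 and 15 counts in them, a mean of 0.954 CPM, against 5.93 CPM in ESC and 102 CPM in Zscan4 OE. Whether reads from a Zscan4 transgene are counted there was not given. Whether these libraries overexpressed Zscan4 is therefore not known and was not tested. No other transgenic line is labelled as kept without doxycycline, and no length of DMSO exposure was given. No library is labelled as a control shRNA, as Dux KD with DMSO, or as SE KO without RA, PlaB or Dux OE. In the Dux KD and SE KO groups the perturbation therefore cannot be told apart from the shRNA vector or the cell line. The study describes 2 biological replicates for SE KO with RA and with Dux OE and for their controls. For the other groups no source used here says that replicates were separate cultures, so the spread between their samples may be technical. The main p-values come from a single fit that shares its estimate of spread over the 13 groups. All of them therefore rest in part on that spread.

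Neural identity is built up in steps in the embryo. Transcription factors such as Sox1 and Pax6 mark neuroectoderm and neural progenitors, which carry the intermediate filament nestin (Nes). Proneural factors of the Neurog family then commit progenitors to become neurons, which assemble the β-tubulin encoded by Tubb3. Zic1 and the homeodomain factors Meis1 and Meis2 act in patterning, and retinoic acid signalling is a classical inducer of Meis and Hox genes as well as of neural differentiation in culture.

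Library totals ranged from 14401452 to 39402840 counts, and 3 counts in a library, taken as the floor of detection, correspond to between 0.0796 and 0.226 CPM (counts scaled to a common library size). The mESC identity of the cultures was checked with 7 markers (Pou5f1, Nanog, Sox2, Zfp42, Esrrb, Klf4, Tfcp2l1), none of which was at 0 in both libraries of a group. Their summed level was 5611 to 5630 CPM in ESC, 5582 to 5766 in DMSO, 3658 to 3721 in RA, 2732 to 2733 in PlaB and 1678 to 1720 in SE KO RA. The endogenous Dux gene (Duxf3) had a mean level of 8.73 CPM in PlaB and 0.0295 CPM in Dux KD PlaB, and of 2.45 CPM in RA and 0.636 CPM in Dux KD RA. It had 55 and 48 counts in Dux OE and 0 in both Dux R70A OE libraries, and whether reads from the transgenes are counted there was not given. In bulk RNA, fewer cells of a type and less RNA per cell cannot be told apart, here and in every comparison that follows.

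The promoters of 3 genes on which the results turn are printed first, because Meis1 and Zic1 were both higher in RA and Nes was lower in PlaB. Each stretch is the part of the RefSeq promoter window (GRCm38.p6, 250 bases before to 50 after the gene start) that lies ahead of any annotated exon, read 5′ to 3′ on the gene's strand. Capitals mark CG dinucleotides.
Meis1 (chr11:19018986-19019219, minus strand): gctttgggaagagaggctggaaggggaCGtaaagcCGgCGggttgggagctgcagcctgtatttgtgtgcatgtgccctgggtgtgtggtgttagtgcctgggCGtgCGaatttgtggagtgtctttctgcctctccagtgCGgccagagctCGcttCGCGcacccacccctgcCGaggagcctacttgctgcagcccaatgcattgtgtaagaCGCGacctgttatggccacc
Zic1 (chr9:91365811-91366018, minus strand): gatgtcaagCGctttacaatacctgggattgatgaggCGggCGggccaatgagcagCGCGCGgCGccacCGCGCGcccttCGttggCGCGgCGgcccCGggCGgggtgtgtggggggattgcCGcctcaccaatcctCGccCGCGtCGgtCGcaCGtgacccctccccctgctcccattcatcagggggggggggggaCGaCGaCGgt
Nes (chr3:87970843-87971077, plus strand): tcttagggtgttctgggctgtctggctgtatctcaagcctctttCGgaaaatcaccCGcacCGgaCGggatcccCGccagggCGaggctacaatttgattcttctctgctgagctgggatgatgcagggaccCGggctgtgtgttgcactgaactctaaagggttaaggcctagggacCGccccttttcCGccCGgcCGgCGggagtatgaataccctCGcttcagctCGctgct

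These stretches held 12 CG dinucleotides in 234 bases for Meis1, 26 in 208 bases for Zic1 and 14 in 235 bases for Nes. Over the whole 300-base windows the CG count was 37 for Sox1, 32 for Neurog1, 31 for Zic1, 26 for Tubb3, 18 for Nes, 15 for Meis1, 13 for Meis2 and 10 for Neurog2, against a median of 7 over 32851 mouse promoters. The windows were also searched on both strands for retinoid receptor direct repeats at both usual spacings, the Dux motif, the Meis motif TGACAG and the E-box CAGCTG. Of the 10 windows of the members (Pax6 has 2), only the downstream Pax6 window held a match, to the Meis motif, which 19.2% of all promoters hold. The E-box was in 16.3% of all promoters and the other motifs in 0.1% or less. The retinoid receptor repeats were searched for with the letters GGTCA fixed in each unit. The first base of each unit and the spacer between the units were free. Repeats with other letters in place of GGTCA were not searched for, so the lack of matches does not show that they are absent. A match or its absence describes the letters of these windows only.

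The members stood at very different levels. Per kilobase of exon, the median over groups was 59.8 CPM per kb for Tubb3, 2.76 for Nes and 0.96 for Sox1, and between 0 and 0.104 CPM per kb for the other 6. Tubb3 was thus abundant in every culture, ESC included, while Neurog1, Neurog2 and Zic1 had few counts in most groups.

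**Figure D1:**
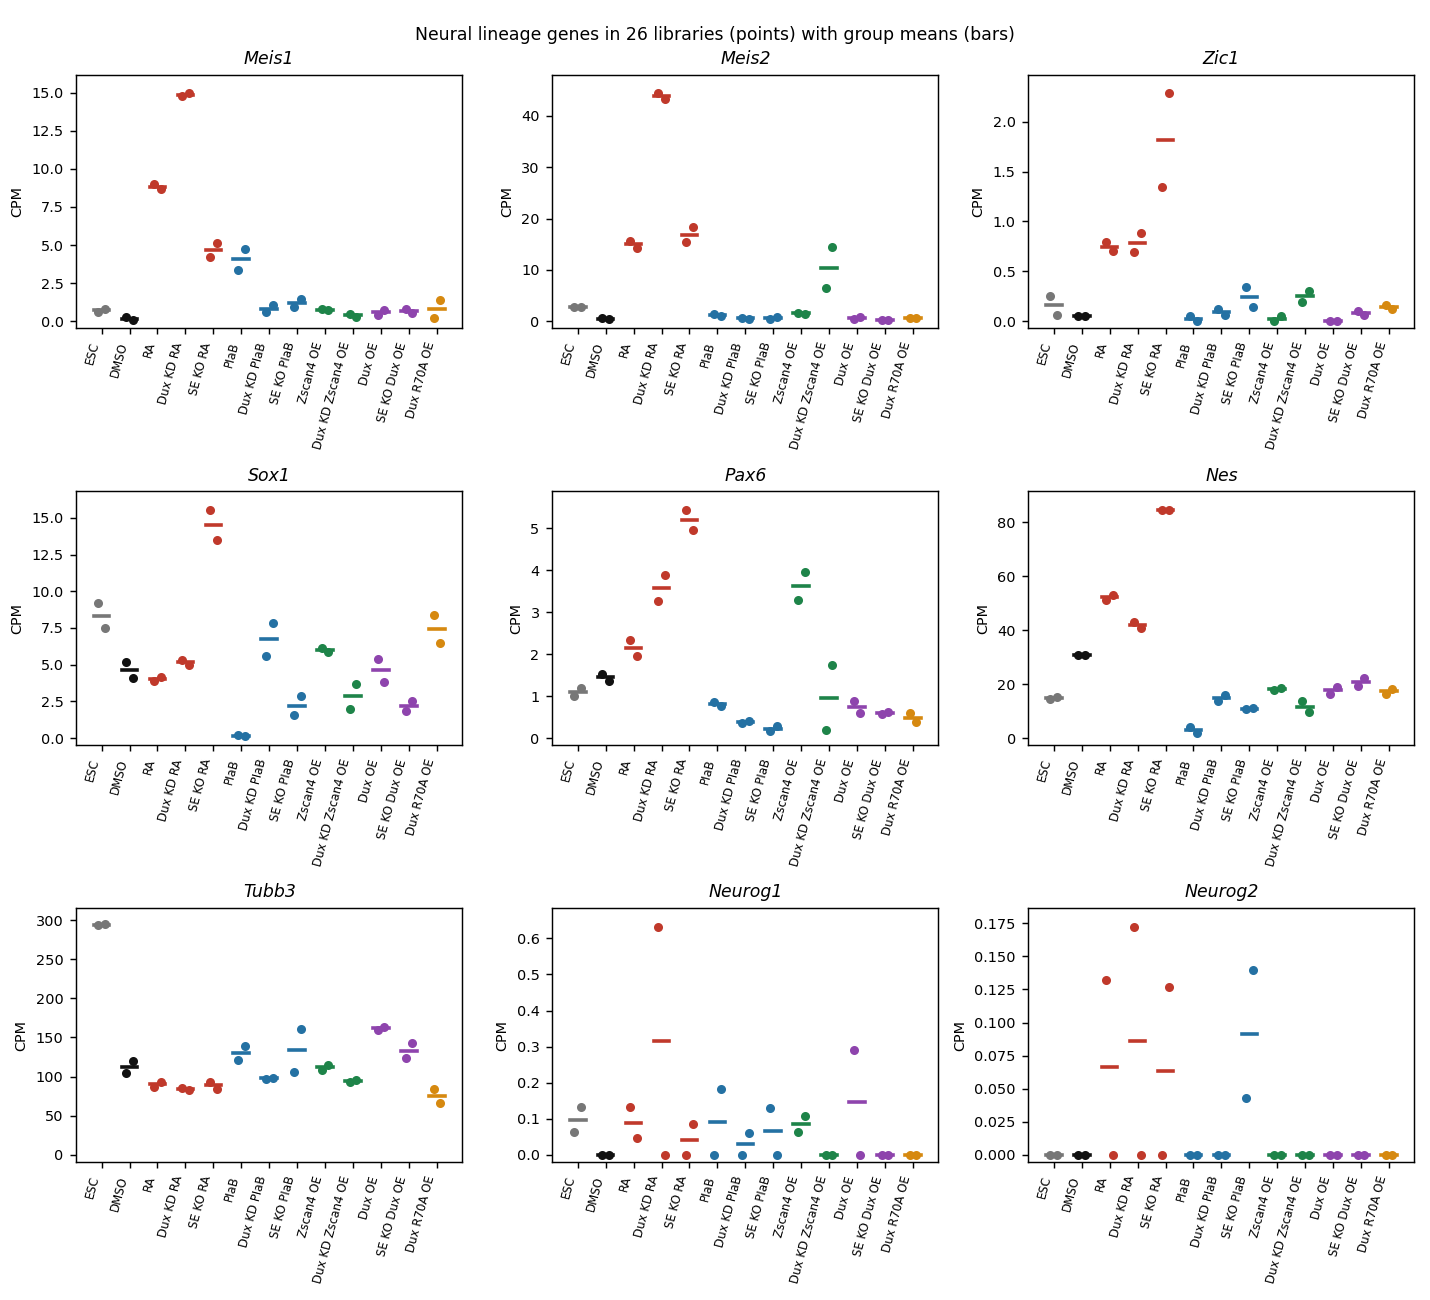
Level of each of the 9 genes in CPM (linear axes from 0, a separate scale for each gene) in the 2 libraries of each of 13 groups, with points for libraries and bars for group means. The highest Meis1, Meis2, Zic1, Pax6, Sox1 and Nes levels are in RA groups (red), PlaB (blue) has the lowest Sox1 and Nes, and Tubb3 is highest in ESC.

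Retinoic acid raised the patterning factors Meis1, Meis2 and Zic1, while the progenitor genes Sox1, Pax6 and Nes changed less against DMSO. Meis1 stood at 8.99 and 8.66 CPM in RA and at 0.284 and 0.0548 CPM in DMSO, which is 390 counts against 6. Meis2, its close relative, stood at 15.7 and 14.3 CPM in RA and at 0.567 and 0.439 CPM in DMSO. Zic1, a zinc finger factor of the dorsal neural tube, had 18 and 15 counts in RA and 1 count in each DMSO library. For these 3 genes both RA libraries lay above both DMSO libraries. The share of all genes whose libraries lie apart in this way was not computed, here or in the comparisons below.

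The log2 fold change was 5.67 ± 0.49 (SE, n = 2 per group) for Meis1, with an edgeR adjusted p of 1.39e-10, and 4.89 ± 0.33 for Meis2 (adjusted p = 1.35e-12). Zic1 gave 3.60 ± 0.83 (adjusted p = 0.000545), and its ratio of counts was 13.4 with an exact binomial 95% interval of 3.43 to 115 that covers counting error only. Throughout, adjusted p-values are Benjamini-Hochberg values of edgeR's quasi-likelihood test over all 20953 genes, and a gene was called when this p was under 0.05 and the log2 fold change reached 1 in either direction. By this rule 3 of the 7 tested members were higher in RA and 0 lower, where 31% of all genes tested were called, 20.6% as higher and 10.4% as lower. Without the fold minimum it was 5 of 7 members and 58.9% of all genes. Of all calls 66.5% were higher, and 76.8% with scaling by library size. The median log2 fold change was 0.76 over the 7 members and 0.10 over all genes. The Meis1 value rested on few DMSO counts, and was 7.13 without DMSO replicate 1 and 4.93 without DMSO replicate 2. Against untreated ESC, where Meis1 and Meis2 were higher than in DMSO, the values were 3.63 for Meis1, 2.44 for Meis2 and 2.17 for Zic1.

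Nes stood at 51.3 and 53 CPM in RA and at 30.7 and 30.9 CPM in DMSO, a log2 difference of 0.76 ± 0.14 that passed the p threshold but not the fold minimum (edgeR adjusted p = 5.35e-05). Tubb3 stood at 86.5 and 93.5 CPM in RA against 105 and 119 CPM in DMSO, a log2 difference of -0.32 ± 0.13 (adjusted p = 0.0342). For the SoxB1 factor Sox1 the levels were 3.88 and 4.19 CPM in RA and 5.16 and 4.11 CPM in DMSO, and the groups overlapped. Its log2 difference was -0.20 with a 95% interval of -0.73 to 0.33 (adjusted p = 0.528). Pax6, the paired-box factor of eye and forebrain, stood at 2.33 and 1.96 CPM in RA and 1.53 and 1.37 CPM in DMSO, without overlap. The difference of 0.56 (interval -0.23 to 1.35) did not pass the test (adjusted p = 0.214). With ESC as the control, Sox1 was called lower in RA (-1.05, adjusted p = 0.000694), Tubb3 lower (-1.71) and Nes higher (1.82).

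In PlaB the progenitor genes Sox1 and Nes fell and Meis1 rose. Sox1 had 4 and 3 counts in PlaB, or 0.194 and 0.136 CPM, the lowest level of any group. Nes stood at 4.12 and 1.95 CPM, also the lowest of any group, against about 30.8 CPM on average in DMSO. Sox1 fell by 4.77 ± 0.44 on the log2 scale (edgeR adjusted p = 1.93e-10) and Nes fell by 3.35 ± 0.19 (adjusted p = 3.17e-15). Without PlaB replicate 1 the Nes change was -4.07, and against ESC it was -2.29. The counting interval of the Sox1 ratio, 166 DMSO counts over 7, ran from 13.4 to 71.3.

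Meis1 stood at 3.39 and 4.76 CPM in PlaB, above both DMSO libraries, and rose by 4.56 ± 0.53 on the log2 scale (edgeR adjusted p = 1.51e-08). This rise was 5.96 without DMSO replicate 1, 3.79 without DMSO replicate 2 and 2.52 against ESC. Meis2 stood at only 1.4 and 1.09 CPM, above DMSO by a log2 difference of 1.30 ± 0.47 (adjusted p = 0.014). The Meis2 call depended on single libraries and on the control. It was lost without DMSO replicate 2 (1.09, adjusted p = 0.0985) or PlaB replicate 1 (1.01, adjusted p = 0.111), and against ESC, with 2.8 and 2.73 CPM, the difference was -1.15. Pax6 (0.872 and 0.771 CPM) gave -0.82 with an interval of -1.72 to 0.08, and Tubb3 (121 and 139 CPM) gave 0.21 with an interval of -0.05 to 0.47, where ESC as the control turned Tubb3 to -1.17. Zic1 was at or under the floor in both groups. In all, 2 of 7 members were called higher and 2 lower, where 58.9% of all genes tested were called, 32.3% as higher and 26.6% as lower. Scaling moved the median of all genes from 0.22 (TMM) to 0.38 (RLE) and 0.48 (library size), and the directions of these 4 calls were the same under each.

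PlaB and RA shared the DMSO control, so they were also compared directly. In that comparison 6 of 7 members were lower in PlaB and 0 higher, where 57.9% of all genes were called, 27.9% as higher and 30% as lower. The log2 differences were -4.57 ± 0.45 for Sox1, -4.11 ± 0.18 for Nes, -3.59 ± 0.28 for Meis2, -1.38 ± 0.41 for Pax6 and -1.11 ± 0.29 for Meis1, with edgeR adjusted p-values from 2.42e-17 to 0.00348. Zic1 had 33 counts in RA and 1 in PlaB, a ratio of 31.9 with a counting interval of 5.34 to 1297. The Meis1 call was lost without PlaB replicate 1 (-0.94), with RLE scaling (-0.98) and with DESeq2 (-0.99), each just under the fold minimum. Tubb3 was the exception, at 0.53 ± 0.13 higher in PlaB. The 2 treatments differ in dose and length, 48 h against 4 days.

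**Figure D2:**
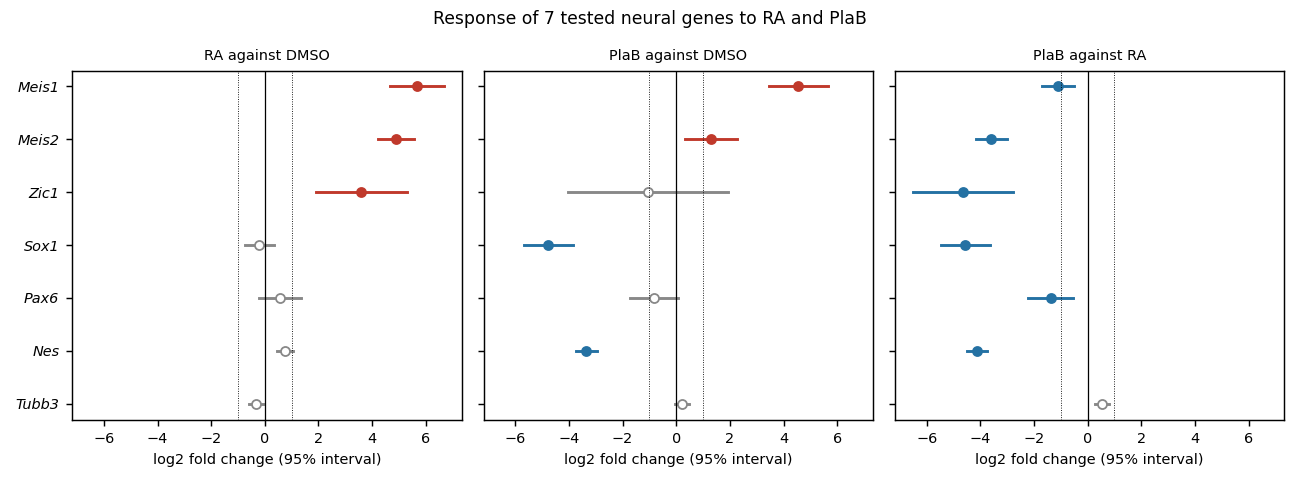
Log2 fold change with its 95% interval for the 7 tested genes in RA against DMSO, PlaB against DMSO and PlaB against RA. Filled red and blue points were called higher and lower, open grey points were not called, and dotted lines mark a log2 fold change of 1 in either direction. Meis1 is at 5.67 in RA and 4.56 in PlaB, while Sox1 is at -0.20 in RA and -4.77 in PlaB.

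Markers of other cell types moved with these groups. Of 9 retinoic acid response genes all 9 were higher in RA than in DMSO, with summed levels of 1064 to 1130 CPM against 29.4 to 32.1. Primitive endoderm markers (Gata4, Gata6, Sox17, Sox7, Pdgfra, Dab2) summed to 83.3 to 86.6 CPM in RA, 32.8 to 37.8 in PlaB and 8.83 to 10.7 in DMSO, and trophectoderm markers summed to 336 to 355 CPM in PlaB and 91.7 to 93.3 in DMSO. No marker of the mESC, primitive endoderm or trophectoderm lists was at 0 in both libraries of any of these groups. The part of such cells in the levels of the neural genes was not tested.

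The wider neural program was read from 7 further lists of 99 genes, of which 87 passed the filter. In RA 31 of these were higher and 20 lower than in DMSO, or 35.6% and 23%, where 20.6% and 10.4% of all genes tested were. Their median log2 fold change was 0.43, against 0.10 over all genes. In summed level the neural progenitor and regional factors were lower in RA (344 to 357 CPM) than in DMSO (679 to 685 CPM). The neuronal and neural structural genes were also lower (634 to 666 against 955 to 956 CPM), as were the proneural and Zic lists. The sums of the TALE, neural crest and glial lists were higher in RA. Neural progenitor and regional factors counted 11 higher and 6 lower of 22, led by Sox3 (3.32), a SoxB1 factor, and Irx3 (3.20), while the anterior factor Otx2 fell by 1.99. Of 9 TALE homeodomain partners, the family of Meis itself, 3 were higher and 0 lower, among them Pknox2 (4.34) and Meis3 (2.60).

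Zic5, a relative of Zic1, went the other way and fell by 1.97 on the log2 scale. The 4 genes of the Zic list, without Zic1, summed to 83.1 to 83.3 CPM in RA against 382 to 393 CPM in DMSO. Neural crest and placode genes counted 7 higher and 1 lower of 14, with Sox9 at 39.3 CPM in RA against a mean of 0.0284 CPM in DMSO, Ets1 at 4.13 and Foxd3 at -3.02. Neuronal and neural structural genes counted 4 higher and 8 lower of 19, with the neurofilament gene Nefl at 2.25, Stmn3 at -3.37 and the RNA-binding protein gene Elavl3 at -2.15. Proneural and Notch genes counted 3 and 3 of 13 (Neurod1 -1.60, Jag1 -1.49, Hey1 -1.39), and glial genes 3 and 0 of 7 (Gfap 3.28, Cspg4 2.73, Mbp 1.79).

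In PlaB 40 of the 87 genes were lower than in DMSO and 16 higher, or 46% and 18.4%, where 26.6% and 32.3% of all genes tested were. Their median log2 fold change was -0.87, against 0.22 for all genes. Sox2, the pluripotency and progenitor factor, stood at 26.2 CPM against 592 CPM in DMSO (-4.50), beside Gbx2 (-4.48) and Sox3 (-3.81) among 9 lower and 3 higher progenitor factors. The Zic1 relatives Zic2 (-7.67) and Zic5 (-5.72) were lower. Neural structural genes counted 11 lower and 2 higher, led by vimentin (Vim, -4.73), Msi1 (-4.03) and Gap43 (-3.89). Among the TALE partners Pbx2 (-4.80) and Pbx3 (-4.48) fell while Pknox2 rose (2.82). The proneural factor Neurod1 rose by 3.18 on the log2 scale, to 13.9 CPM.

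**Figure D3:**
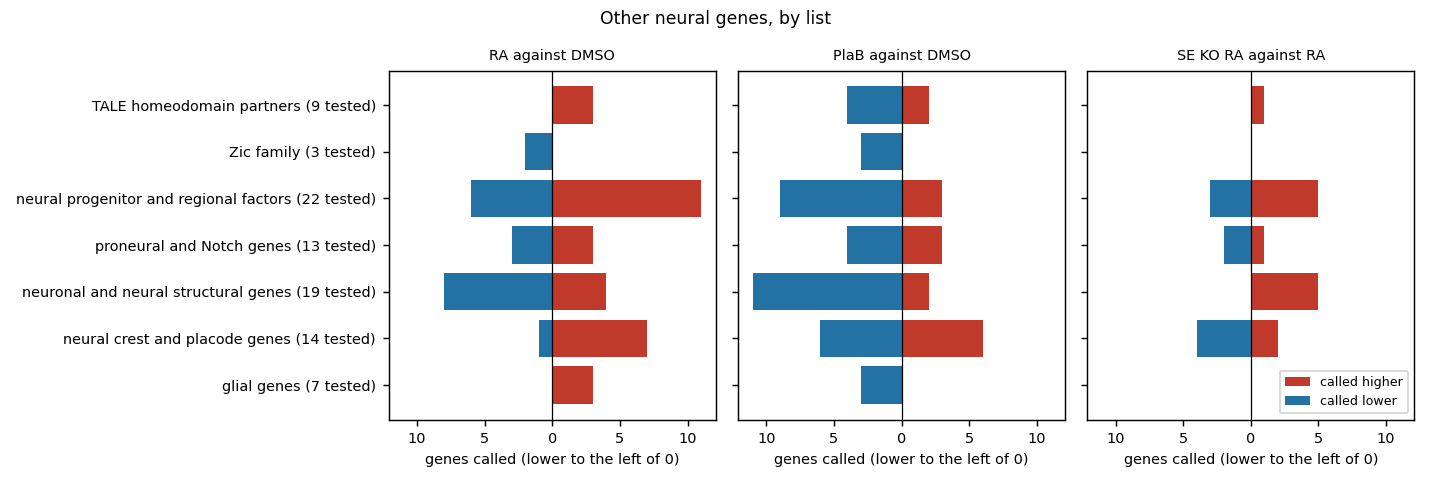
Number of genes called higher (red, right of 0) and lower (blue, left of 0) on each of 7 neural lists in RA against DMSO, PlaB against DMSO and SE KO RA against RA, with the number tested beside each list. Neural structural genes count 8 lower and 4 higher in RA, 11 lower and 2 higher in PlaB, and 0 lower and 5 higher in SE KO RA.

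Under RA the Dux KD cells had more Meis2 than cells without the knockdown. The differences of the progenitor genes did not pass the test. Meis2 stood at 44.5 and 43.4 CPM in Dux KD RA, the highest level of any group, against 15.7 and 14.3 CPM in RA, a log2 fold change of 1.55 ± 0.20 (edgeR adjusted p = 1.07e-06). Meis1 stood at 14.8 and 15 CPM, likewise the highest of any group, a log2 difference of 0.75 ± 0.27 under the fold minimum (adjusted p = 0.0311). Neither gene overlapped between the groups, a description for which the share over all genes was not computed. Thus 1 of 7 members was called, as higher, where 10.9% of all genes were called, 6.41% as higher and 4.53% as lower. Without the fold minimum it was 2 of 7 and 37.3% of all genes.

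Pax6 stood at 3.27 and 3.89 CPM in Dux KD RA and gave 0.74 with an interval of 0.02 to 1.45 (edgeR adjusted p = 0.1). Sox1, at 5.34 and 5.01 CPM, gave 0.36 (interval -0.17 to 0.89), and Nes, at 42.9 and 40.9 CPM, gave -0.31 (interval -0.61 to -0.02, adjusted p = 0.0826). For Pax6, Sox1 and Nes the libraries of the groups did not overlap. The share of all genes without overlap was not computed, so this is not a result about these genes. These differences did not pass the test, which does not show that the levels were equal. Of the 87 other neural genes 6 were higher and 9 lower, or 6.9% and 10.3%, where 6.41% and 4.53% of all genes tested were. Among them Stmn2 (1.12) and En2 (1.75) were higher and Sox9 (-2.33) lower. The retinoic acid response genes summed to 997 to 1005 CPM in Dux KD RA, mostly from Stra8 (610 CPM against 784 CPM in RA). Of the 9, Crabp2 was called higher (65.7 against 31.6 CPM) and 0 lower, and their part in these results was not tested.

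In PlaB the Dux KD cells had more Sox1 and Nes and less Meis1 and Meis2 than PlaB alone. Sox1 stood at 5.6 and 7.84 CPM in Dux KD PlaB against 0.194 and 0.136 CPM in PlaB, a log2 fold change of 5.30 ± 0.42 (edgeR adjusted p = 9.37e-12) and a ratio of counts of 40.9 (counting interval 19.5 to 103). Nes stood at 13.9 and 15.8 CPM against 4.12 and 1.95 CPM, a log2 fold change of 2.30 ± 0.20 (adjusted p = 3.27e-11). The 2 progenitor genes therefore lay above both PlaB libraries in each knockdown library, Sox1 at a level overlapping that of ESC and Nes at one overlapping that of ESC but below DMSO.

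Meis1 fell to 0.59 and 1.08 CPM, a change of -2.29 ± 0.40 (edgeR adjusted p = 1.14e-05), and Meis2 to 0.649 and 0.478 CPM (-1.13 ± 0.46, adjusted p = 0.03). The Meis2 call was lost without PlaB replicate 1 (-0.84), Dux KD PlaB replicate 1 (-1.34, adjusted p = 0.0599) or Dux KD PlaB replicate 2 (-0.82), and without the low-count filter (-0.99). Pax6 gave -1.08 with an interval of -2.23 to 0.08, and was called only with library-size scaling (-1.27) or a fit of these groups alone (-1.09). In this comparison 2 members were higher and 2 lower of 7, where 54.9% of all genes were called, 26.1% as higher and 28.8% as lower. Other neural genes counted 36 higher and 15 lower of 87, with Sox2 at 722 CPM (4.78), Pbx2 (4.44) and Vim (3.92) among the higher. The summed mESC markers were 5060 to 5079 CPM in Dux KD PlaB against 2732 to 2733 CPM in PlaB. Trophectoderm markers summed to 123 to 131 CPM against 336 to 355 CPM, and 2 of 6 were at 0 in Dux KD PlaB. The part of either list in these results was not tested.

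The effect of the knockdown in PlaB was set against its effect in RA in an interaction contrast. The difference between the effects was 4.94 ± 0.53 for Sox1, 2.62 ± 0.24 for Nes, -1.81 ± 0.66 for Pax6, -2.68 ± 0.50 for Meis2 and -3.04 ± 0.48 for Meis1, and all 5 were called (edgeR adjusted p from 2.75e-10 to 0.0182), where 52.2% of all genes were, 25.5% as higher and 26.6% as lower. The call for Pax6 was lost without PlaB replicate 1 (-1.61), Dux KD RA replicate 2 (-1.66) or either replicate of Dux KD PlaB (-1.67 and -1.82).

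The SE KO cells given RA held the highest levels of Sox1, Nes, Pax6 and Zic1 in the study. Sox1 stood at 15.5 and 13.5 CPM against 3.88 and 4.19 CPM in RA, a log2 fold change of 1.85 ± 0.24 (edgeR adjusted p = 4.05e-07). Pax6 stood at 5.44 and 4.95 CPM against 2.33 and 1.96 CPM (1.27 ± 0.33, adjusted p = 0.00269). Nes stood at 84.6 and 84.4 CPM against 51.3 and 53 CPM, a difference of 0.70 ± 0.14 under the fold minimum (adjusted p = 0.000162). For all 3 genes both SE KO libraries lay above both RA libraries.

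Zic1 had 29 and 54 counts, or 1.35 and 2.29 CPM, against 18 and 15 counts in RA (1.28 ± 0.49, edgeR adjusted p = 0.0344). Its call was lost without RA replicate 1 (1.38, adjusted p = 0.123), RA replicate 2 (1.19, 0.17) or SE KO RA replicate 2 (0.85, 0.348), with DESeq2 (adjusted p = 0.196) and without the low-count filter (0.0634). Meis1 stood lower, at 4.23 and 5.12 CPM (-0.91 ± 0.29, adjusted p = 0.0106, under the fold minimum), and Meis2 at 15.4 and 18.3 CPM, overlapping RA (0.17, interval -0.25 to 0.59). Without the library whose genotype label conflicts with its title, Sox1 gave 1.74, Pax6 1.20, Zic1 1.61 and Nes 0.70. In that fit Meis1 gave -0.78 and Meis2 0.29.

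Of the 7 tested members 3 were higher and 0 lower in SE KO RA, where 17.6% of all genes were called, 6.57% as higher and 11% as lower. Without the fold minimum it was 5 of 7 members and 46% of all genes. Other neural genes counted 14 higher and 9 lower of 87. Neural structural genes counted 5 higher and 0 lower of 19, including the adhesion molecule gene Ncam1 (1.77) and Stmn3 (3.56), and progenitor factors 5 higher and 3 lower of 22, with Irx3 at 1.69 and Otx2 at -3.46. The Notch ligand gene Dll1 rose by 2.17 on the log2 scale, and Sox9 fell by 2.28. Of the 7 mESC markers 4 were called lower than in RA and 0 higher, with a sum of 1678 to 1720 against 3658 to 3721 CPM. Of 6 trophectoderm markers 5 were tested and 4 were higher, with a sum of 123 to 126 against 85.7 to 94.2 CPM, and 1 of the 6 was at 0 in SE KO RA. Their part in these results was not tested.

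In PlaB the SE KO cells had more Sox1 and Nes but less Pax6 and Meis1 than PlaB alone. Sox1 stood at 1.56 and 2.84 CPM (3.69 ± 0.49, edgeR adjusted p = 1.79e-07) and Nes at 10.9 and 11 CPM (1.86 ± 0.20, adjusted p = 2.58e-09), both above the PlaB libraries. Pax6 had 4 and 6 counts, or 0.173 and 0.28 CPM, the lowest level of any group (-1.84 ± 0.59, adjusted p = 0.00681), and this call was lost without SE KO PlaB replicate 1 (-1.50, adjusted p = 0.0639). Meis1 stood at 0.954 and 1.45 CPM, below PlaB (-1.77 ± 0.36, adjusted p = 7.84e-05).

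Zic1 had 8 and 3 counts against 1 and 0 in PlaB, a ratio of 10.5 with a counting interval of 1.53 to 454. It was called (edgeR adjusted p = 0.013), but not without PlaB replicate 2 (2.21, adjusted p = 0.113), without SE KO PlaB replicate 1 (2.31, 0.155) or with DESeq2 (0.0844). Meis2 (0.52 and 0.886 CPM) gave -0.83 with an interval of -1.68 to 0.02, and was called without SE KO PlaB replicate 2 (-1.22). In all, 3 members were higher and 2 lower of 7, where 52% of all genes were called, 25.9% as higher and 26.1% as lower. Other neural genes counted 37 higher and 9 lower of 87, with Sox3 (4.80), Sox2 (3.94) and Foxd3 (6.85) among the higher. The summed mESC markers were 4649 to 5013 CPM in SE KO PlaB, and primitive endoderm markers 127 to 136 CPM against 32.8 to 37.8 in PlaB, while trophectoderm markers summed to 130 to 215 CPM against 336 to 355 in PlaB. The part of these in these results was not tested.

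The SE KO effect in PlaB minus that in RA was 1.84 ± 0.60 for Sox1, 1.17 ± 0.24 for Nes and -3.11 ± 0.67 for Pax6 (edgeR adjusted p = 0.00974, 0.000144 and 0.000216), where 49% of all genes were called, 28.3% as higher and 20.7% as lower. Pax6 was thus higher with SE KO in RA and lower with it in PlaB. Without SE KO RA replicate 1 the differences were 1.97 for Sox1, 1.19 for Nes, -3.02 for Pax6, -0.96 for Meis1 and -1.09 for Meis2. The Sox1 call was lost without PlaB replicate 2 (1.62) or SE KO PlaB replicate 2 (1.38), and the Nes call without PlaB replicate 2 (0.72). For Meis1 (-0.86, interval -1.80 to 0.09) and Meis2 (-0.996, interval -1.94 to -0.05, adjusted p = 0.062) the difference was not called, though Meis2 was with RLE (-1.12) or library-size scaling (-1.07) and without SE KO PlaB replicate 2 (-1.39). The knockdown and knockout comparisons share the RA and PlaB libraries, so their values stand side by side here and are not independent.

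**Figure D4:**
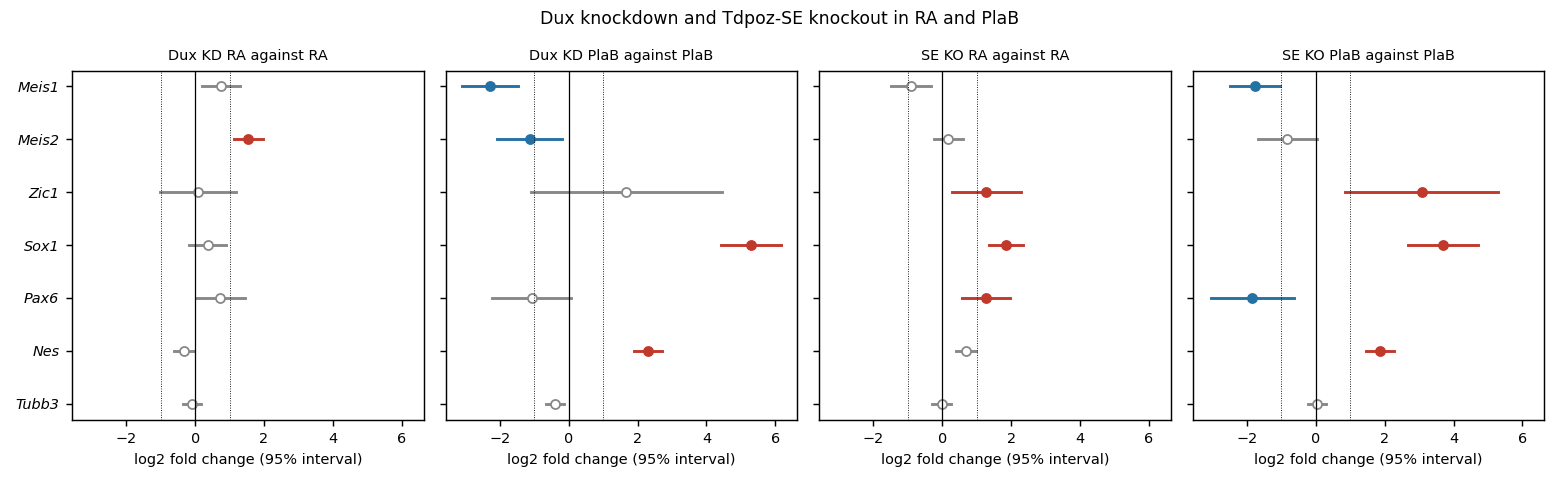
Log2 fold change with its 95% interval for the 7 tested genes under Dux KD in RA and PlaB and under SE KO in RA and PlaB, each against the same treatment without it. Filled red and blue points were called higher and lower, open grey points were not called, and dotted lines mark a log2 fold change of 1 in either direction. Sox1 and Nes are higher in both PlaB panels, Meis1 is lower in both, and Meis2 is called higher in Dux KD RA alone among these 4 panels.

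In the overexpression groups against ESC fewer members were called than in RA or PlaB against DMSO, and fewer of all genes too. In Zscan4 OE Pax6 stood at 3.3 and 3.96 CPM against 0.997 and 1.2 CPM in ESC, without overlap, a log2 fold change of 1.73 ± 0.40 (edgeR adjusted p = 0.00103) that was 1.32 against DMSO. Tubb3 stood at 109 and 115 CPM against 293 and 294 CPM (-1.39 ± 0.13, adjusted p = 3.5e-09), but at -0.01 against DMSO. Of 7 members 1 was higher and 1 lower, where 11.6% of all genes were called, 7.25% as higher and 4.39% as lower. Of all calls 62.3% were higher, and 76.6% with scaling by library size. Sox1 and Nes were not called, at 6.15 and 5.87 CPM and at 17.8 and 18.6 CPM.

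The libraries labelled Dux KD Zscan4 OE were compared with Zscan4 OE, although their Zscan4c level (0.954 against 102 CPM) and treatment label leave it unknown whether they overexpressed Zscan4. The presence of the knockdown and a lack of overexpression, if there was one, cannot be told apart in this comparison. Meis2 stood at 6.43 and 14.5 CPM against 1.62 and 1.41 CPM in Zscan4 OE, a log2 fold change of 2.77 ± 0.29 (edgeR adjusted p = 4.11e-08) that was 3.23 without replicate 1 and 2.08 without replicate 2 of the group so labelled. Pax6 had 3 and 23 counts, or 0.195 and 1.73 CPM, a fold change of -1.97 ± 0.42 (adjusted p = 0.000586) that was -1.09 without replicate 1 and -4.19 without replicate 2. When only these 2 groups were fitted the Pax6 call was lost (adjusted p = 0.0732). Sox1, at 2.01 and 3.69 CPM, gave -1.09 ± 0.28 (adjusted p = 0.00376) and was not called without replicate 1 (-0.72). Here 1 member was higher and 2 lower of 7, where 11.1% of all genes were called, 5.78% as higher and 5.35% as lower.

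Meis2 was lower than in ESC in both Dux OE and Dux R70A OE. It stood at 0.365 and 0.811 CPM in Dux OE and at 0.591 and 0.565 CPM in Dux R70A OE, both below the 2.8 and 2.73 CPM of ESC, with log2 fold changes of -2.20 ± 0.43 and -2.25 ± 0.41 (edgeR adjusted p = 0.000287 and 6.32e-05). Against DMSO the same differences were 0.24 and 0.20 and were not called. Tubb3 stood at 160 and 163 CPM in Dux OE and at 84.2 and 66.1 CPM in Dux R70A OE, the lowest mean of any group.

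The Tubb3 difference from ESC was -0.86 ± 0.13 in Dux OE, which turned to 0.52 against DMSO, and -1.96 ± 0.13 in Dux R70A OE (edgeR adjusted p = 5.6e-12), which was -0.58 against DMSO. Between Dux R70A OE and Dux OE it was -1.10 ± 0.13 (adjusted p = 1.78e-07), the 1 call of 7 in that comparison, where 13.6% of all genes were called, 6.11% as higher and 7.51% as lower. Without the fold minimum it was 2 of 7 and 38.7%. That call was lost without Dux R70A OE replicate 2 (-0.94) and with scaling by library size (-0.91). Against ESC 1 of 7 members was called in Dux OE and 2 of 7 in Dux R70A OE, all lower, where 9.51% of all genes (7.38% higher, 2.12% lower) and 16.9% (10.2% higher, 6.72% lower) were called. Without the fold minimum it was 3 of 7 members and 27.5% of all genes in Dux OE. With scaling by library size the share of calls that were higher went from 60.4% to 77.6% in Dux R70A OE against ESC and from 44.8% to 58.9% against Dux OE. Both overexpression groups share the ESC control. Sox1 stood at 8.38 and 6.47 CPM in the mutant and at 5.4 and 3.85 CPM in Dux OE, a difference of 0.69 ± 0.26 (adjusted p = 0.0348, under the fold minimum). From ESC to Dux OE Sox1 gave -0.86 ± 0.26 (edgeR adjusted p = 0.0134), which was called without Dux OE replicate 1 (-1.14) or ESC replicate 2 (-1.03), but was -0.0075 against DMSO.

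In SE KO cells with Dux OE, Sox1 stood at 1.83 and 2.55 CPM, below the 5.4 and 3.85 CPM of Dux OE (-1.08 ± 0.27, edgeR adjusted p = 0.00443). This was the only call of 7, where 6.3% of all genes were called, 2.46% as higher and 3.84% as lower. It was lost without Dux OE replicate 1 (-0.81), without SE KO Dux OE replicate 1 (-0.85) and without the low-count filter (-0.998, just under the fold minimum). Of 7 fibroblast markers 5 were tested and 4 were higher in SE KO Dux OE, with a sum of 116 to 117 CPM against 44.5 to 47.2 CPM, and their part in this result was not tested.

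The 2 unperturbed groups differed from each other, which bears on the fold changes above that use ESC or DMSO as the control. From ESC to DMSO Nes rose by 1.07 ± 0.16 on the log2 scale (edgeR adjusted p = 3.39e-06), while Tubb3 fell by 1.39 ± 0.13, Meis2 fell by 2.45 ± 0.42 and Meis1 fell by 2.04 ± 0.75 (adjusted p = 1.87e-09, 2.78e-05 and 0.0281). Meis1 rested on 10 and 12 counts in ESC and on 5 and 1 in DMSO, and its call was lost without DMSO replicate 2 (-1.30) or without ESC replicate 1 (-2.20) or 2 (-1.85). Of 7 members 1 was higher and 3 lower, where 16.2% of all genes were called, 8.32% as higher and 7.91% as lower. Neural structural genes on the wider lists counted 10 higher and 2 lower of 19, with Elavl3 at 2.61 and Gap43 at 2.46.

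The proneural factors Neurog1 and Neurog2 were close to absent from the counts. Neurog1 had 35 counts over all 26 libraries, with 14 libraries at 0 and 3 above the floor. Its highest library was Dux KD RA replicate 1 with 11 counts, while replicate 2 of that group had 0. Neurog2 had 13 counts in all, with 21 libraries at 0 and none above the floor, and its counts lay in RA, Dux KD RA, SE KO RA and SE KO PlaB libraries. A level under the floor was not detectable at this depth.

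Across the 13 groups the order of levels differed between members. For Meis2 the order ran from Dux KD RA (43.9 CPM) through SE KO RA (16.9), RA (15) and the libraries labelled Dux KD Zscan4 OE (10.4), whose ranges overlapped their neighbours after the first, to SE KO Dux OE (0.296). For Meis1 it ran from Dux KD RA (14.9) through RA (8.82) and SE KO RA (4.68), which overlapped PlaB (4.08), to DMSO (0.169). For Sox1 it ran from SE KO RA (14.5), clear of the rest, through ESC (8.34), Dux R70A OE (7.42), Dux KD PlaB (6.72) and Zscan4 OE (6.01), of which neighbours overlapped, to PlaB (0.165). For Nes it ran from SE KO RA (84.5) through RA (52.2), Dux KD RA (41.9) and DMSO (30.8), all without overlap, to PlaB (3.03).

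The likeness of the members' patterns is described by Pearson's r over the 13 group means of log2 CPM, which share libraries and controls. Among the 21 pairs of tested members r ran from -0.43 (Tubb3 and Zic1) to 0.82 (Zic1 and Meis2), with 0.76 for Sox1 and Nes and 0.72 for Meis1 and Meis2, and 9 pairs were above 0.5. Over 14391 genes, the gene with the most like pattern was Shank3 for Sox1 (0.96), Ttc7b for Nes (0.98), Efemp1 for Meis1 (0.98), Camk4 for Meis2 (0.91), Magee1 for Zic1 (0.94), Apobr for Pax6 (0.85) and Ddx24 for Tubb3 (0.93). Hoxa7, a Hox cluster gene, was among the 3 most like Meis1 (0.93).

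**Figure D5:**
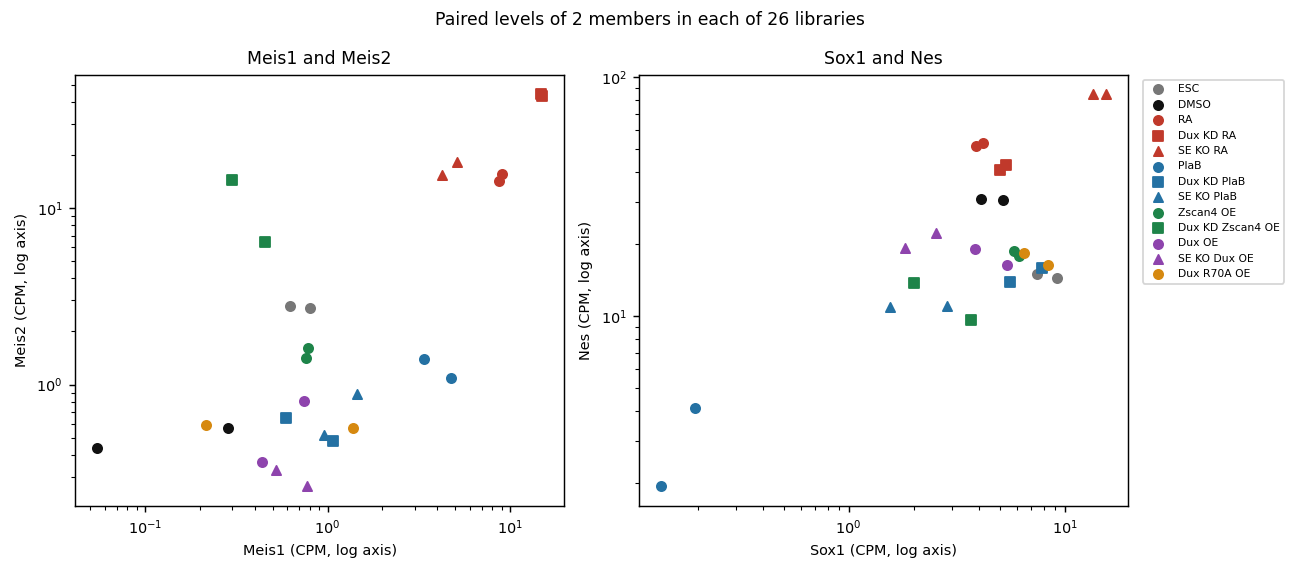
Levels in CPM (log axes) of Meis1 against Meis2 and of Sox1 against Nes in each of the 26 libraries, with circles for cells without knockdown or knockout, squares for Dux KD and triangles for SE KO. The RA groups (red) lie at the upper right for Meis1 and Meis2, the libraries labelled Dux KD Zscan4 OE have high Meis2 with low Meis1, and the 2 PlaB libraries lie alone at the lower left for Sox1 and Nes.

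In the positions of the deposited table, Meis1 lies at chr11:18879817-19018985 and Meis2 at chr2:115863064-116065839, both on the minus strand, Sox1 at chr8:12395295-12400126, Nes at chr3:87971078-87980451, Tubb3 at chr8:123411424-123422015 and Pax6 at chr2:105668900-105697364 on the plus strand, and Zic1 at chr9:91358058-91365810 on the minus strand. Some neighbours share exon bases with a member. Zic4, on the opposite strand, shares 60 bases with Zic1 and had 13 counts to Zic1's 184, and Gm37818 shares 1029 bases with Meis1 and had 21 counts to 1522. Since no strand setting was stated, reads there cannot be assigned with certainty.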

How the data were processed

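Poly(A) RNA-seq libraries of R1 mESCs were analysed. The authors deposited whole-number counts of reads per gene, without normalization, and the submitters' processing notes name FastQC, Trimmomatic, STAR, featureCounts, DESeq2 and mm10, with no versions. Strand setting and treatment of multiply mapping reads were not given in the sources used here. All sample columns were used.

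The main test was the edgeR (4.0.16, under R 4.3.3) quasi-likelihood F-test. A single model held the 26 libraries, TMM scaled them, filterByExpr at its defaults removed low genes, and fold changes used 0.125 as prior count. SE was the log2 fold change over the square root of F. P-values were adjusted by the Benjamini-Hochberg method over 20953 genes. With 2 replicates per group the estimate of spread leans on all groups. CPM used TMM-scaled totals, and 3 counts per library were the floor. Intervals of count ratios are exact (Clopper-Pearson, 95%). On counts simulated for 18420 genes the edgeR test recovered 96% of 200 changed genes with 7 false calls. The simulation gave all genes and groups the same spread, and its changes were larger than the fold minimum. The changed genes were drawn from those with more counts. These rates therefore need not hold for groups with more spread, smaller changes or genes with few counts.

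Between replicates, chi-square over its degrees of freedom was 1.55 to 30.2, so none agreed within sampling noise. It was highest in SE KO PlaB (30.2) and the libraries labelled Dux KD Zscan4 OE (26.1), then in SE KO Dux OE (9.81). Since the fit shares its spread over all groups, p-values of comparisons with these groups may be too small. The members and lists were chosen with earlier results of these data known. Beside the members, the rule named up to 3 genes per list with the largest absolute log2 fold change among calls whose average log2 CPM reached 1 in RA and PlaB against DMSO, up to 2 in other comparisons, and the 3 genes most like each member. Some list genes that this rule named are not reported here. Alternatives were RLE and library-size scaling, no filter, no fold minimum, DESeq2 (1.42.0), fits restricted to the compared groups, a replicate block, the other unperturbed control and leaving out each replicate. ESC in place of DMSO for RA and PlaB was chosen after seeing the data.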

Additional observations from a re-analysis of the deposited data

Results flagged for a closer look

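For 8 results an effect differed between RA and PlaB by an interaction contrast in edgeR. The Dux KD effect in PlaB minus that in RA was 4.94 on the log2 scale for Sox1 (adjusted p = 4.79e-09), 2.62 for Nes (2.75e-10), -3.04 for Meis1 (3.96e-06), -2.68 for Meis2 (3.21e-05) and -1.81 for Pax6 (0.0182). Meis2 was higher with the knockdown in RA and lower with it in PlaB, while Sox1 and Nes were higher with it in PlaB and were not called in RA. The Meis2 call in PlaB was lost in some fits without a single library and without the low-count filter. The Pax6 difference was also lost in some fits without a single library.

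The SE KO effect in PlaB minus that in RA was 1.84 for Sox1 (adjusted p = 0.00974), 1.17 for Nes (0.000144) and -3.11 for Pax6 (0.000216). With SE KO, Sox1 was higher in both treatments, more so in PlaB, and Pax6 was higher in RA and lower in PlaB. The calls for the Sox1 and Nes differences, and the Pax6 call in PlaB, were each lost in some fit without a single library. PlaB was given for 4 days and RA for 48 h, so treatment and its length cannot be told apart here.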

How the results depend on the processing

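Of 48 calls of single genes over 16 contrasts, 30 were made under every alternative, 13 were lost on leaving out some library, 9 under another alternative, and 3 reversed, each with the other unperturbed control, as did 3 values that had not been called. The cause was not tested. With DMSO in place of ESC, Meis2 gave 1.57 in Zscan4 OE, 0.24 in Dux OE and 0.20 in Dux R70A OE, Tubb3 gave 0.52 in Dux OE, and 0 members were called in Dux OE. With ESC in place of DMSO, Meis2 gave -1.15 and Tubb3 -1.17 in PlaB, and 6 members were called in RA. With no fold minimum 5 members were called in RA, 3 in Dux OE, 2 in Dux R70A OE against Dux OE, 2 in Dux KD RA and 5 in SE KO RA. Without the low-count filter 0 were called in SE KO Dux OE.

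Leaving out 1 library gave 1 to 2 calls in Dux OE against ESC, 0 to 1 in Dux R70A OE against Dux OE, 0 to 1 in SE KO Dux OE, 3 to 6 in SE KO PlaB and 1 to 3 for the SE KO interaction. A lone sample left in a group was assumed to vary like the others. Same-numbered replicates had deviations that correlated between -0.0473 and 0.0237, so the numbers gave no pairing, and a fit with a replicate block called the same numbers of members, 3 in RA and 4 in PlaB among them, and lost none of the 48 calls. For the comparisons of single genes not named here, 40 of 447 alternative values changed sign. Depth limits Zic1, Neurog1 and Neurog2, which rest on few counts.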

Other observations

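Beyond Neurog1 and Neurog2, the proneural list held a gene that was not near the floor. Neurod1, a factor that acts after the Neurog genes in neuronal differentiation, stood at a mean of 13.9 CPM in PlaB and 13.3 CPM in Zscan4 OE, against 1.53 CPM in DMSO and 1.51 CPM in ESC. The log2 fold change was 3.18 in PlaB (edgeR adjusted p = 1.04e-09) and 3.14 in Zscan4 OE (adjusted p = 4.03e-08), and it was 2.11 in Dux R70A OE (adjusted p = 1.95e-05). In the libraries labelled Dux KD Zscan4 OE, Neurod1 stood at 2.30 CPM, -2.56 from Zscan4 OE (edgeR adjusted p = 6.32e-07). Their Zscan4c level was 0.954 CPM, and whether they overexpressed Zscan4 is not known.

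The Notch ligand gene Dll1 stood at 0.485 CPM in ESC and at 6.16 CPM in Dux R70A OE, 3.45 CPM in Zscan4 OE and 2.26 CPM in Dux OE, with log2 fold changes of 3.66, 2.82 and 2.20 that were all called. DMSO stood at 2.17 CPM, close to the level of Dux OE, and was itself called higher than ESC by 2.16. Dll1 stood at 0.168 CPM in the libraries labelled Dux KD Zscan4 OE, a change of -4.26 from Zscan4 OE (edgeR adjusted p = 6.13e-09), and at 13.7 CPM in SE KO RA.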
